A study of Mus musculus with 17 samples.

Results

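The 9 genes described here handle retinoic acid in the cell: Stra6 in uptake, Crabp1 and Crabp2 in binding, Dhrs3, Cyp26a1, Cyp26b1 and Cyp26c1 in removal, and Rara and Rarb as receptors. They were chosen by name, and each symbol matched 1 Ensembl gene among the 49671 genes counted. RNA was measured in 17 libraries of R1 mouse embryonic stem cells with the genotype FOXA2-Venus, a reporter of the floor plate transcription factor FOXA2, divided into FOXA2-positive and FOXA2-negative cells. The RA groups (3 libraries each of FOXA2-positive and FOXA2-negative cells) were exposed to retinoic acid for 18 hours. In the BMP4 groups (3 and 3 libraries) the same 18 hours were followed by 6 untreated hours and then by 8 hours with BMP4, a bone morphogenetic protein. The LDN groups (2 FOXA2-positive and 3 FOXA2-negative libraries) had the same schedule with an agent that the labels call LDN in place of BMP4. All cells therefore carried the reporter and had been given retinoic acid, so no group shows these genes without it. No later hours are named for RA, so treatment and time of collection cannot be told apart in comparisons with RA. The labels do not say whether replicates were separate cultures, and their spread, which every p-value here measures, may be technical.

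Retinoic acid is made from vitamin A inside cells and acts through nuclear receptors of the RAR family, which bind DNA with RXR partners at response elements and switch on nearby genes. STRA6 takes vitamin A up from its carrier in blood, CRABP1 and CRABP2 carry retinoic acid in the cytoplasm, DHRS3 turns retinaldehyde back into retinol and CYP26 enzymes oxidize retinoic acid for disposal. Several of these genes are themselves switched on by retinoic acid, and in the neural tube the pathway promotes posterior identities.

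The best known response element is a direct repeat of 2 half-sites of 6 bases with 5 bases between them, called DR5. RefSeq promoter windows (GRCm38.p6, 250 bases before to 50 after a start, 300 bases in all) were found for 8 of the 9 genes, and Crabp2 was not matched. Both strands were searched for DR5, DR2 and DR1 repeats, with spacers of 5, 2 and 1 bases, in which each half-site was the consensus AGGTCA or its variant AGTTCA, or else the form GGGTCA or its variant GGTTCA. A DR5 stood in 2 of the 8 matched genes, Rarb and Cyp26a1, against 31 of 27025 genes with a window (0.115%). No member window held a DR2 or a DR1, which stood in 0.268% and 0.222% of all 32851 windows. The 250 bases before each of those starts are printed because they hold the repeats, with the half-sites in capitals.
Rarb, chr14:16575477-16575726, minus strand: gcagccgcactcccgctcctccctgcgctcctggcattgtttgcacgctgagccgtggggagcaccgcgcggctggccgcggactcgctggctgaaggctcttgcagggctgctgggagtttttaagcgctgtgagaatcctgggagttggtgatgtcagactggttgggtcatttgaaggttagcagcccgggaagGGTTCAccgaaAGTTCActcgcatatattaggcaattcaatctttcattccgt
Cyp26a1, chr19:37697558-37697807, plus strand: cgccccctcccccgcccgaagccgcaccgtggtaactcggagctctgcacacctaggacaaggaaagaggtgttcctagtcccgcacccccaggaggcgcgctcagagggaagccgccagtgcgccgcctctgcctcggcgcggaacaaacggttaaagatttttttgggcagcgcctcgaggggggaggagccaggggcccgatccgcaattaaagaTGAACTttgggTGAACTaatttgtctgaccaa

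Read along their own strand, the repeats share the second half-site and differ in the first half-site and the spacer.
Rarb repeat: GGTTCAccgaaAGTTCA
Cyp26a1 repeat: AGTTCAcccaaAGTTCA

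The Rarb repeat (chr14:16575513-16575529) ended 36 bases before its start and ran in the direction of the gene. That start lies inside the annotated gene, downstream of its outermost start. The Cyp26a1 repeat (chr19:37697776-37697792) ended 15 bases before its start and ran in the opposite direction. Among 33 other genes of the pathway and its targets, 21 had a window. Bco1, which cleaves carotene, was the single one of them with a repeat, in a count that pools DR5, DR2 and DR1. A match says only that these letters stand in the window, and the RNA was counted per gene, not per start.

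Gene counts per library ran from 8435845 to 10796136, with a median of 9785138. Levels are given as CPM, counts scaled to library size by TMM, and their errors as SD over libraries. The Foxa2 level checked the labels, at 18.4 to 44.2 CPM in the 8 FOXA2-positive libraries and 0 to 2.93 CPM in the 9 FOXA2-negative ones. Both RA libraries numbered 1 stood apart, with 6.95% (FOXA2-negative) and 7.43% (FOXA2-positive) of their counts from mitochondrial genes against 3.50% to 4.81% in the other 15. Of the floor plate markers, Ferd3l had 0 counts in the series and Shh 11, and both failed the expression filter, while Foxa1 and Ntn1 passed it with 1109 and 1201 counts. Changes were tested with edgeR's quasi-likelihood test on 17813 genes that passed the filter, and a gene was called at an adjusted p under 0.05 over all of them. Of the 9 members 8 passed, and Cyp26c1 did not. Log2 fold changes are edgeR estimates with their standard errors (SE). Bulk RNA cannot tell fewer expressing cells from less RNA per cell.

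**Figure D1:**
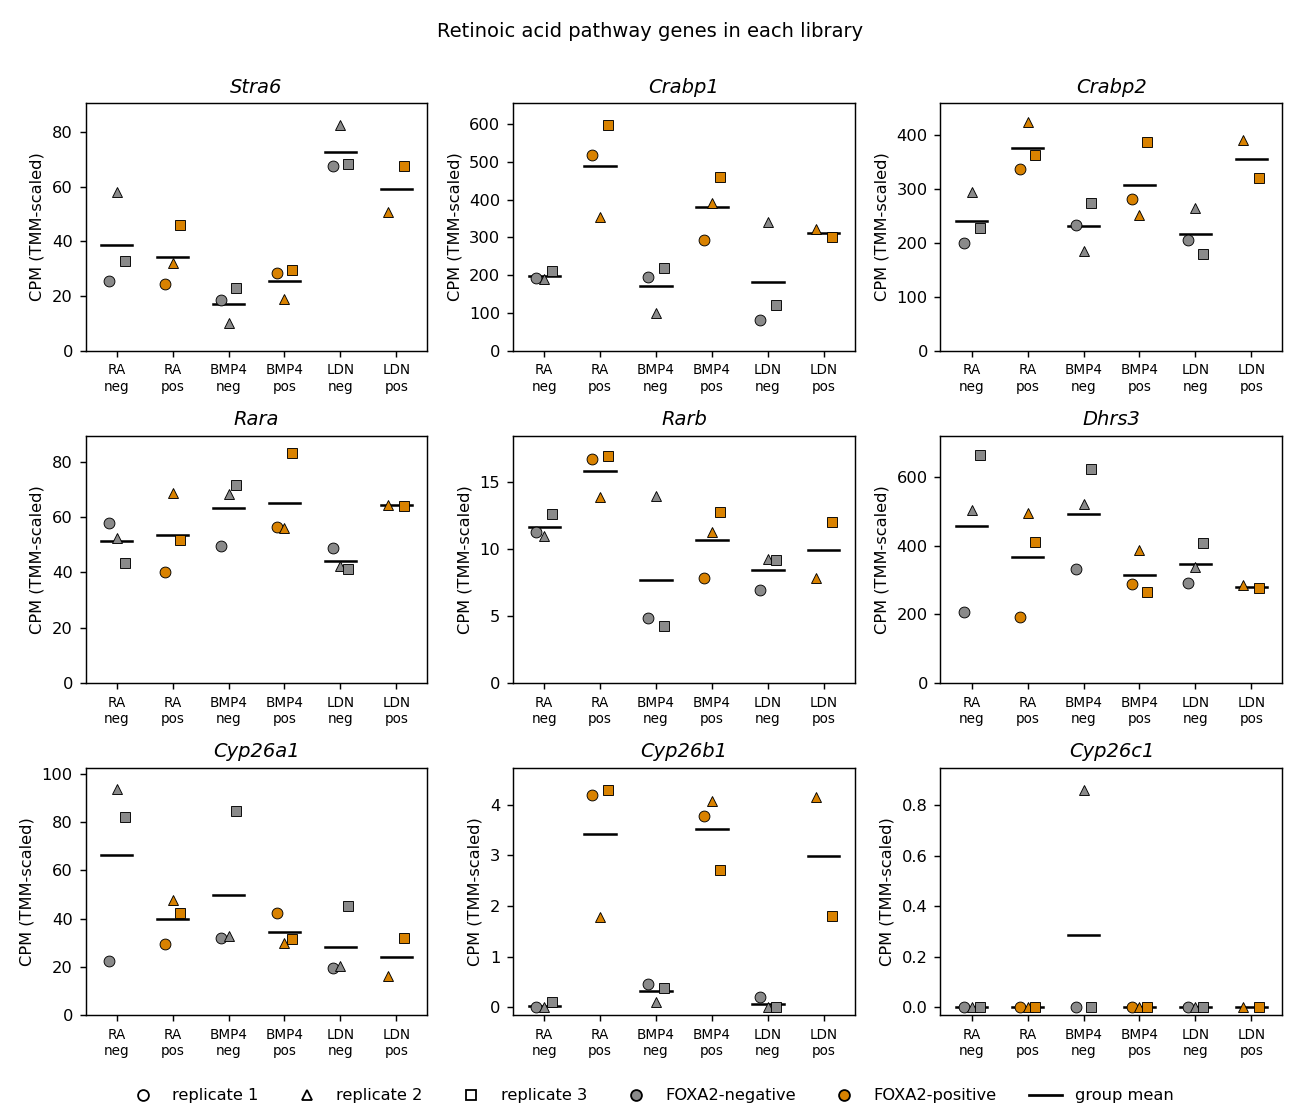
Each panel plots 1 gene, with TMM-scaled CPM on the vertical axis and the 6 groups on the horizontal one. Points are libraries (shape gives the replicate number, gray FOXA2-negative, orange FOXA2-positive) and bars are group means. Stra6 is low in BMP4 and high in LDN, Cyp26b1 is near 0 in FOXA2-negative libraries, and Dhrs3 is low in both RA libraries numbered 1.

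Compared per kilobase of exon, the carriers and DHRS3 stood far above the rest. Over the 6 group means, Crabp1 averaged 361 CPM per kb, Crabp2 217 and Dhrs3 128, and in each of the 6 groups these genes held the top 3 places in that order among the 9 members and the receptor genes Rarg, Rxra, Rxrb and Rxrg. Cyp26a1 averaged 20.4 CPM per kb and Stra6 7.09. The receptor Rara stood at 13.1 CPM per kb, as did Rarg, a receptor that was not a member, and Rarb at 2.03. Cyp26b1 (0.322 CPM per kb) and Cyp26c1 (0.0273 CPM per kb) were the lowest 2 members. The percentile of Crabp1 among the 26723 genes ranked on this scale was 99.4, that of Rarb 63.3 and that of Cyp26c1 14.3. Of 45 pairs of groups that were neighbors when each gene's groups were ordered by mean CPM, 41 overlapped, so the order of groups was mostly not resolved within a gene. Neighbors are the closest groups by construction, the 41 include pairs of Cyp26c1 groups without counts, and no share over all genes is given.

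**Figure D2:**
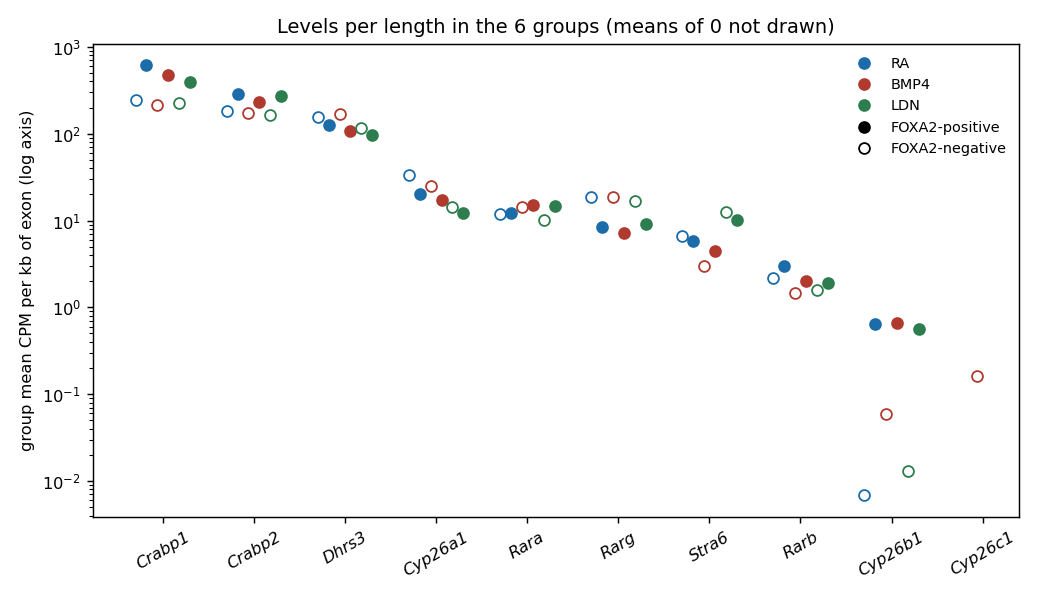
Points are group means in CPM per kb of exon on a log axis, colored by treatment and filled for FOXA2-positive cells, and means of 0 are not drawn. Crabp1, Crabp2 and Dhrs3 lie above all other genes in every group, and for Cyp26b1 filled points lie above open ones.

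Stra6 (ENSMUSG00000032327, chromosome 9, 58063788 to 58153996, plus strand, GRCm38), the vitamin A uptake receptor, was the 1 member called between treatments. After BMP4, FOXA2-negative libraries held 18.5, 10.3 and 23.1 CPM and FOXA2-positive libraries 28.5, 19.05 and 29.5 CPM. After LDN, FOXA2-negative libraries held 67.6, 82.6 and 68.4 CPM and FOXA2-positive libraries 50.9 and 67.5 CPM. After RA, FOXA2-negative libraries held 25.6, 58.2 and 32.7 CPM and FOXA2-positive libraries 24.5, 32.2 and 45.9 CPM. The 6 BMP4 libraries were all below the 5 LDN libraries, and the RA libraries lay between or overlapped them.

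In FOXA2-negative cells Stra6 was lower after BMP4 (17.3 ± 6.47 CPM, SD, n = 3) than after LDN (72.9 ± 8.46 CPM, n = 3), or 4.20-fold lower in the model (log2 -2.07 ± 0.32, SE; edgeR adjusted p = 0.00116). Stra6 was the 1 call among 8 members, where 0.191% of all genes were called and 0.073% were lower. The call held in 13 of 13 alternatives, with log2 fold changes of -2.34 to -1.81 and a highest adjusted p of 0.0188. Among the members, the libraries of Stra6 and of Rara (0.52 ± 0.23, edgeR adjusted p = 0.696) did not overlap there, as in 11.2% of all genes. In FOXA2-positive cells the values were 25.7 ± 5.75 CPM (n = 3) and 59.2 ± 11.7 CPM (n = 2), a log2 fold change of -1.20 ± 0.34 that was not called (edgeR adjusted p = 0.198), and no member was called there (0.32% of all genes; 1 member, Stra6, at an unadjusted p under 0.05, and 0 by DESeq2), although its libraries did not overlap, as in 22.4% of all genes. The difference between the fractions' responses was itself not called (0.87 ± 0.47, edgeR adjusted p = 0.819). Averaged over both fractions, a contrast added after the data had been seen, BMP4 against LDN gave -1.64 ± 0.23 (edgeR adjusted p = 0.000157), or 3.11-fold, where 0.786% of all genes were called and 0.309% were lower. The libraries of 1.03% of all genes did not overlap in that contrast.

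In each fraction the Stra6 mean of RA lay between those of BMP4 and LDN, with no call on either side. Against RA, it was -1.17 ± 0.32 after BMP4 in FOXA2-negative cells (edgeR adjusted p = 0.313) and 0.91 ± 0.31 after LDN (edgeR adjusted p = 0.596). Averaged over fractions the log2 fold changes were -0.79 ± 0.22 for BMP4 (edgeR adjusted p = 0.19) and 0.85 ± 0.23 for LDN (edgeR adjusted p = 0.0922). The LDN value became a call without the FOXA2-negative RA library numbered 2 (1.06, adjusted p = 0.032), the highest of the RA libraries, and with DESeq2 (0.86, adjusted p = 0.043). Without the filter on low counts, Stra6 was called for BMP4 against RA in FOXA2-negative cells (-1.15, adjusted p = 0.0148) and on average (-0.78, adjusted p = 0.0105), for LDN against RA on average (0.85, adjusted p = 0.00342), and for BMP4 against LDN in FOXA2-positive cells (-1.20, adjusted p = 0.0127). Its estimates hardly moved in that setting, so the calls there do not rest on larger differences. BMP4, LDN and RA contrasts share libraries, so these values are not independent of each other.

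Most neural progenitor markers were, like Stra6, lower after BMP4 than after LDN. The 7 genes of that list (Sox1, Sox2, Sox3, Pax6, Nes, Ncam1, Cdh2) summed to 348 to 610 CPM in BMP4 libraries and 574 to 987 CPM in LDN libraries, which overlap. In the averaged contrast 5 of 7 were called lower (Sox1, Sox2, Sox3, Pax6 and Ncam1). The other 2, Nes and Cdh2, had positive log2 fold changes and were not called. Of 7 surface ectoderm markers, Tfap2a and Dlx3 were called higher and Cdh1 lower there. The part of these cell types in the Stra6 difference was not tested. Stra6 overlaps Ccdc33 on the opposite strand, which had 198 counts in the series against 6733 for Stra6, and the strand setting of the counting is not given in the sources used here.

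The genes with the most similar profiles over the 17 libraries, by the root mean square difference of centered log2 CPM among 9985 genes of at least 5 CPM, were Lpar1 (0.451), Upk3bl (0.452) and Slc2a1 (0.482). The median gene stood at 0.89, and the SD of Stra6 itself was 0.822.

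The other 7 tested members showed no called difference between BMP4 and LDN. Cyp26a1 was 0.67 ± 0.37 in the averaged contrast, Rara 0.27 ± 0.17, Dhrs3 0.34 ± 0.31, Crabp1 0.10 ± 0.33, Crabp2 -0.06 ± 0.14, Rarb -0.02 ± 0.34 and Cyp26b1 1.13 ± 1.051 (edgeR adjusted p between 0.612 and 1). The SE of Crabp2 was the smallest of the 8 and that of Cyp26b1 the largest.

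**Figure D3:**
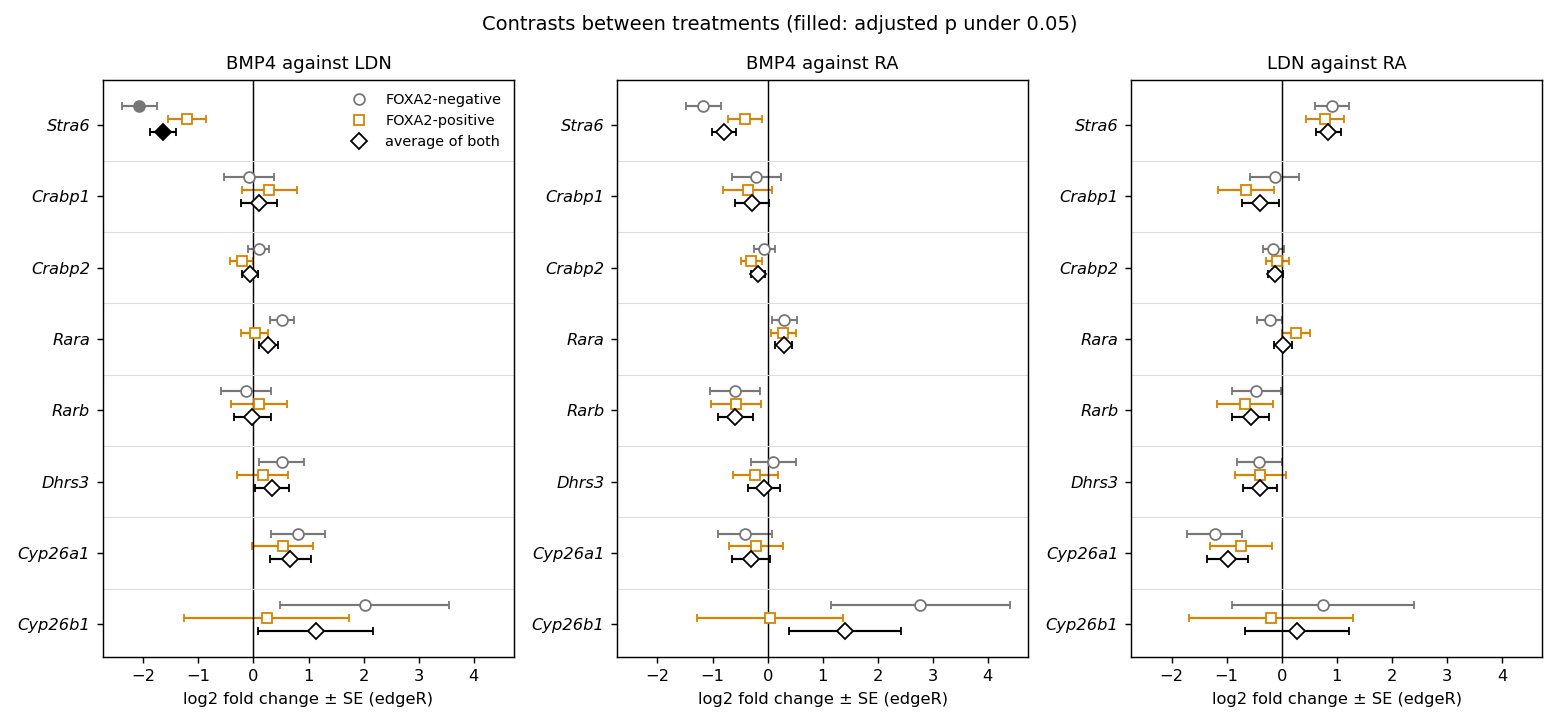
The 3 panels plot log2 fold changes ± SE of 8 members for BMP4 against LDN, BMP4 against RA and LDN against RA, in FOXA2-negative cells, FOXA2-positive cells and averaged over both. Filled symbols have an edgeR adjusted p under 0.05, and Stra6 holds the 2 filled symbols, both for BMP4 against LDN.

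Crabp1 (ENSMUSG00000032291, chromosome 9, 54764748 to 54773110, plus strand), a cytoplasmic carrier of retinoic acid, was higher in FOXA2-positive cells. After RA, FOXA2-negative libraries held 193, 190 and 212 CPM and FOXA2-positive libraries 517, 354 and 598 CPM. After BMP4 the values were 196, 100.1 and 219 CPM in FOXA2-negative libraries and 292, 391 and 461 CPM in FOXA2-positive ones. After LDN they were 82.3, 342 and 121 CPM in FOXA2-negative libraries and 324 and 302 CPM in FOXA2-positive ones. The fractions did not overlap after RA and BMP4, and after LDN the FOXA2-negative library numbered 2 lay above both FOXA2-positive libraries.

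Crabp2 (ENSMUSG00000004885, chromosome 3, 87948666 to 87953376, plus strand), the carrier known to hand retinoic acid to its receptors, moved the same way over a smaller range. After RA, FOXA2-negative libraries held 198, 293 and 227 CPM and FOXA2-positive libraries 337, 424 and 363 CPM. After BMP4 the values were 233, 185 and 273 CPM in FOXA2-negative libraries and 281, 250.5 and 386 CPM in FOXA2-positive ones. After LDN they were 205, 263 and 179 CPM in FOXA2-negative libraries and 390.1 and 319.6 CPM in FOXA2-positive ones. The fractions did not overlap after RA and LDN and overlapped after BMP4.

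Within single treatments neither carrier was called in the filtered 6-group model. For Crabp1 the log2 fold changes were 1.30 ± 0.45 after RA, 1.15 ± 0.45 after BMP4 and 0.78 ± 0.49 after LDN (edgeR adjusted p = 0.29, 0.379 and 0.562). For Crabp2 they were 0.64 ± 0.19, 0.41 ± 0.19 and 0.72 ± 0.20 (edgeR adjusted p = 0.105, 0.428 and 0.109). No member was called between fractions in any single treatment, where 1.19% of all genes were called after RA, 0.921% after BMP4 and 0.994% after LDN. At an unadjusted p under 0.05 stood 3 members in each treatment, and DESeq2 called 2 members after RA, 0 after BMP4 and 2 after LDN. DESeq2 also called more of all genes, 420 against 164 with edgeR after BMP4 and 487 against 177 after LDN. Here and elsewhere, member counts by DESeq2 or at an unadjusted p cannot be read against the edgeR shares. The share of all genes at an unadjusted p under 0.05 is not given here. With the replicate number as a block, Crabp2 was called after RA (0.66, adjusted p = 0.00244) and after LDN (0.70, adjusted p = 0.0124). Libraries of the fractions did not overlap in 4 of 8 members after RA, 2 after BMP4 and 5 after LDN, against 15.2%, 14.8% and 27.8% of all genes. Without the FOXA2-negative LDN library numbered 2, Crabp1 was called after LDN (1.62, adjusted p = 0.00787). Without the filter on low counts, Crabp1 was called after RA, BMP4 and LDN (adjusted p = 3.62e-11, 2.66e-08 and 0.00527) and Crabp2 after RA and LDN (adjusted p = 0.0148 and 0.016). The Crabp1 estimate after RA hardly moved there (1.307), so these calls do not rest on larger differences. Why the p-values fell so far was not tested. With the compared groups alone, Crabp1 was called after RA (adjusted p = 0.0104).

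Averaged over the 3 treatments, a contrast added after the data had been seen, 3 of 8 members were called and each was higher in FOXA2-positive cells, where 7.62% of all genes were called and 3.12% were higher. Cyp26b1 was among them, and it passed the filter only through FOXA2-positive libraries, where it was high. Crabp2 stood at 344 ± 58.4 CPM (SD, n = 8) in FOXA2-positive and 229 ± 40.6 CPM (n = 9) in FOXA2-negative libraries, a log2 difference of 0.59 ± 0.11 (edgeR adjusted p = 0.000984), or 1.504-fold, and was called in 24 of 24 alternatives. Crabp1 stood at 405 ± 111 CPM and 184 ± 77.8 CPM, with a log2 fold change of 1.08 ± 0.27 (edgeR adjusted p = 0.0288), or 2.11-fold. The Crabp1 call held in 14 of 24 alternatives. It was lost without each of 9 single libraries, at adjusted p = 0.0503 to 0.0849: FOXA2-negative RA 1 and 2 and LDN 3, and FOXA2-positive RA 1 and 3, BMP4 2 and 3 and LDN 2 and 3. It was also lost without both RA libraries numbered 1 (1.06, adjusted p = 0.0962). Its log2 fold change ranged from 0.96 to 1.36 over the alternatives.

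**Figure D4:**
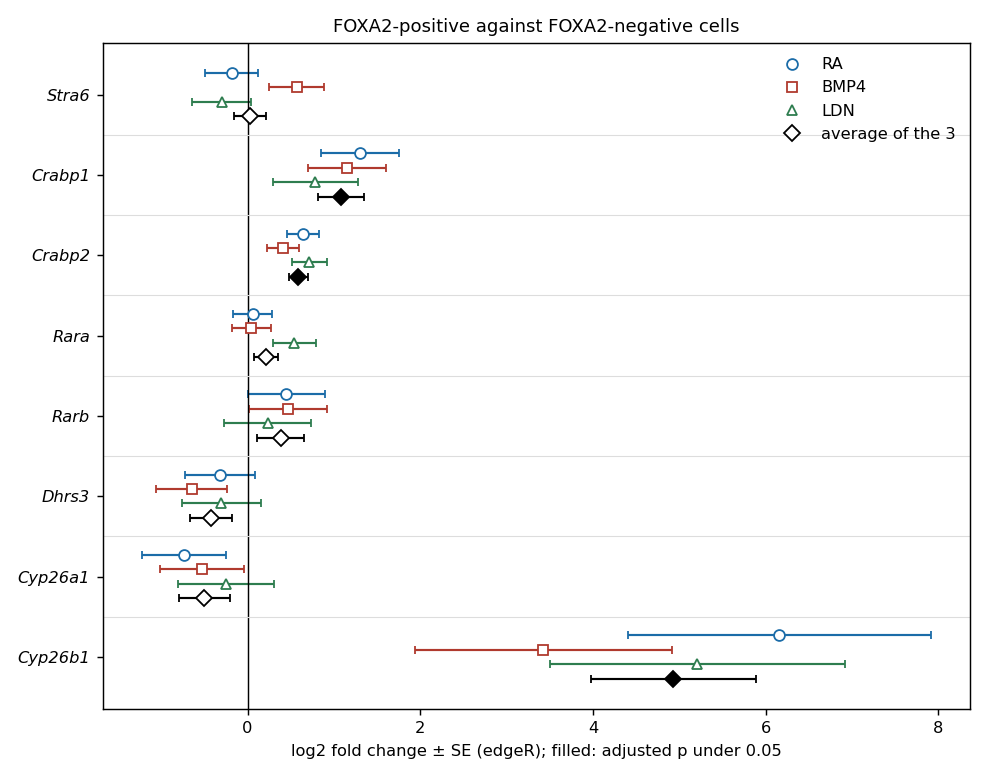
Log2 fold changes ± SE of FOXA2-positive against FOXA2-negative cells are plotted for 8 members after RA, BMP4 and LDN and averaged over the 3 treatments. Filled symbols have an edgeR adjusted p under 0.05. The averages of Cyp26b1, Crabp1 and Crabp2 are filled, and no symbol of a single treatment is.

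Cyp26b1 (ENSMUSG00000063415, chromosome 6, 84571414 to 84593908, minus strand), 1 of the 3 retinoic acid hydroxylases, was low everywhere and nearly restricted to FOXA2-positive libraries. After RA, FOXA2-positive libraries had 38, 19 and 42 counts and FOXA2-negative libraries 0, 0 and 1. After BMP4 they had 40, 39 and 28 counts against 4, 1 and 4. After LDN the 2 FOXA2-positive libraries had 44 and 15 counts and the FOXA2-negative libraries 2, 0 and 0. Every FOXA2-positive library (1.78 to 4.29 CPM) lay above every FOXA2-negative one (0 to 0.465 CPM), which 1.15% of all genes also did in 1 direction or the other.

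Summed over libraries, the ratio of FOXA2-positive to FOXA2-negative CPM was 97 after RA (exact 95% binomial interval 17 to 3870, from 99 and 1 counts). It was 11.1 after BMP4 (5.65 to 25, from 107 and 9 counts) and 46.9 after LDN (12.4 to 397, from 59 and 2 counts). These intervals cover counting error only. Single treatments gave no call (edgeR adjusted p = 0.1, 0.402 and 0.179), while DESeq2 called Cyp26b1 after RA (adjusted p = 0.00223) and LDN (adjusted p = 0.0154). No difference of the fraction effect between treatments was called for any member (0 at an unadjusted p under 0.05, and 0 by DESeq2; 0.00561% of all genes for BMP4 minus RA, 0.00561% for LDN minus RA and 0.0337% for BMP4 minus LDN). Cyp26b1 passed the filter on low counts only through FOXA2-positive libraries, where it was high, so its calls add no support beyond the counts. The averaged contrast gave a log2 fold change of 4.93 ± 0.95 (edgeR adjusted p = 0.00132), called in 23 of 23 alternatives that kept the gene. At so few counts that estimate depends on edgeR's prior count and is no bound.

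The chromosome that carries Cyp26b1 was shifted between fractions in the same direction. Chromosome 6 held 335 genes of mean level 20 CPM or more, whose median log2 difference was 0.31 after RA, 0.34 after BMP4 and 0.24 after LDN, and 84.2%, 86.9% and 75.2% of them were positive. Its part in the Cyp26b1 difference was not tested. The medians of the other members' chromosomes lay between -0.01 and 0.07.

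Cyp26a1 (ENSMUSG00000024987, chromosome 19, 37697798 to 37701536, plus strand), the hydroxylase with the DR5 shown above, had far more RNA than Cyp26b1 and a wide spread within groups. After RA, FOXA2-negative libraries held 22.5, 93.8 and 82.2 CPM and FOXA2-positive libraries 29.3, 47.7 and 42.4 CPM. After BMP4 the values were 31.7, 32.6 and 84.7 CPM in FOXA2-negative libraries and 42.1, 29.9 and 31.5 CPM in FOXA2-positive ones. After LDN they were 19.6, 20.4 and 45.2 CPM in FOXA2-negative libraries and 16.1 and 31.8 CPM in FOXA2-positive ones. The fractions overlapped in every treatment, and the highest library of each treatment was FOXA2-negative.

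No contrast of the filtered model called Cyp26a1. Between fractions it averaged -0.50 ± 0.30 (edgeR adjusted p = 0.377). Against RA it averaged -0.98 ± 0.38 after LDN (26.6 ± 11.9 CPM, n = 5, against 53.0 ± 28.8 CPM, n = 6; edgeR adjusted p = 0.269) and -0.31 ± 0.34 after BMP4 (edgeR adjusted p = 0.825). Without the filter on low counts, Cyp26a1 was called lower in FOXA2-positive cells on average (-0.51, adjusted p = 0.0333). It was also called lower there after LDN than after RA, in FOXA2-negative cells (-1.22, adjusted p = 0.00472) and on average (-0.98, adjusted p = 0.000489).

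Cyp26c1 (ENSMUSG00000062432, chromosome 19, 37685581 to 37693398, plus strand), the remaining hydroxylase and the neighbor of Cyp26a1, had 8 counts in the FOXA2-negative BMP4 library numbered 2 (0.860 CPM) and 0 in the other 16 libraries. With a floor of 3 counts per group, the 5 groups without a count could hide levels of 0.0985 to 0.159 CPM. No difference can be read from 1 library.

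Dhrs3 (ENSMUSG00000066026, chromosome 4, 144892827 to 144928209, plus strand), the retinaldehyde reductase, had the highest mean CPM of the members (376 CPM, against 289 for Crabp1 and 287 for Crabp2), though per kilobase it came after both, and varied widely between replicates, with an SD of 232 CPM in FOXA2-negative RA cells. After RA, FOXA2-negative libraries held 206, 504 and 663 CPM and FOXA2-positive libraries 192, 496 and 409.9 CPM. After BMP4 the values were 331, 520.2 and 623 CPM in FOXA2-negative libraries and 289, 387 and 266 CPM in FOXA2-positive ones. After LDN they were 290.2, 337 and 408 CPM in FOXA2-negative libraries and 284 and 275 CPM in FOXA2-positive ones. The lowest 2 of all libraries were the RA libraries numbered 1, which also had the highest mitochondrial shares, and the part of those libraries' quality in their low Dhrs3 was not tested.

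Dhrs3 was not called in any contrast of the filtered, unblocked model with all libraries. Between fractions it averaged -0.42 ± 0.25 (325 ± 97.7 CPM, n = 8, against 431 ± 156 CPM, n = 9; edgeR adjusted p = 0.382). That average was called with the replicate number as a block (-0.43, adjusted p = 0.0121), without both RA libraries numbered 1 (-0.44, adjusted p = 0.028) and without the filter on low counts (-0.43, adjusted p = 0.00103). Without that filter it was also called lower after BMP4 alone (-0.65, adjusted p = 0.0109). Against RA, LDN averaged -0.40 ± 0.31 (edgeR adjusted p = 0.635), and -0.73 without both RA libraries numbered 1 (adjusted p = 0.0446).

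Rara (ENSMUSG00000037992, chromosome 11, 98927818 to 98974942, plus strand), the broadly expressed receptor, had the smallest ratio of highest to lowest library among the members (2.07). Its 17 libraries ran from 40.2 to 83.2 CPM with a median of 56.1 CPM. After LDN, FOXA2-positive libraries held 64.3 and 64.2 CPM and FOXA2-negative libraries 48.9, 42.5 and 41.2 CPM, without overlap, as in 27.8% of all genes there (0.54 ± 0.25; edgeR adjusted p = 0.42). The fractions overlapped after RA and after BMP4. The averaged difference was 0.21 ± 0.14 (edgeR adjusted p = 0.409).

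Rarb (ENSMUSG00000017491, chromosome 14, 16430839 to 16819156, minus strand), the receptor whose promoter window holds the other DR5, ran from 4.24 to 16.97 CPM. After RA, FOXA2-positive libraries held 16.7, 13.9 and 16.97 CPM and FOXA2-negative libraries 11.3, 10.96 and 12.6 CPM. After BMP4 the values were 7.84, 11.3 and 12.8 CPM in FOXA2-positive and 4.88, 13.97 and 4.24 CPM in FOXA2-negative libraries. After LDN they were 7.85 and 12.03 CPM in FOXA2-positive and 6.91, 9.22 and 9.21 CPM in FOXA2-negative libraries. The fractions did not overlap after RA, as in 15.2% of all genes, and overlapped after BMP4 and LDN.

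No Rarb difference was called. Between fractions it averaged 0.38 ± 0.27 (edgeR adjusted p = 0.478). Against RA it averaged -0.58 ± 0.32 after BMP4 (edgeR adjusted p = 0.522) and -0.57 ± 0.34 after LDN (edgeR adjusted p = 0.49), and both share the RA libraries. No member was called against RA in any contrast, averaged or not, where few genes were called at all. In FOXA2-negative cells the share of all genes called was 0.0786% for BMP4 and 0.0393% for LDN, in FOXA2-positive cells 0.0786% and 0.208%, and in the averages 0.281% and 0.522%. In those 6 contrasts 0 to 2 members had an unadjusted p under 0.05, and DESeq2 called 1, Stra6 for LDN averaged over fractions (adjusted p = 0.043). Against BMP4, the RA libraries did not overlap for Stra6 in FOXA2-negative cells (10.5% of all genes) and for Rarb in FOXA2-positive cells (11.8%). Against LDN they did not overlap for Stra6 and Rarb in FOXA2-negative cells (12.3%), and for Stra6, Rarb and Crabp1 in FOXA2-positive cells (26% of all genes). The end of Rarb overlaps Top2b on the opposite strand, which had 5829 counts against 1778 for Rarb. The strand setting of the counting is not given in the sources used here, so how reads from that stretch were assigned is not known.

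Rarg was called between fractions, and was named by its test from a list of 6 other receptors and partners (Rarg, Rxra, Rxrb, Rxrg, Ppard, Fabp5). Rara and Rarb were not called, which does not show that they were unchanged. In the average over treatments 1 of the 6 was called, where 7.62% of all genes were called. This was Rarg, at 34.7 ± 12.2 CPM (n = 8) in FOXA2-positive and 76.7 ± 19.99 CPM (n = 9) in FOXA2-negative cells, a difference of -1.13 ± 0.19 log2 units (edgeR adjusted p = 0.000428). Rarg was also called after BMP4 alone (-1.35 ± 0.32, edgeR adjusted p = 0.0365), where 0.921% of all genes were called. The median of the 6 was -0.17, against -0.03 over all genes tested.

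The enzymes that make retinoic acid were near 0, with means of 0.447 CPM for Aldh1a1, 0.782 for Aldh1a2 and 0.101 for Aldh1a3. The 6 corepressors and coactivators, of which the coactivator Ncoa3 was the most abundant at 541 CPM, split into 3 positive and 3 negative differences between fractions in the averaged contrast, with a median of -0.03.

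Of 11 other targets of retinoic acid, 4 were called higher in FOXA2-positive cells on average and 1 lower, with 9 log2 fold changes positive and 2 negative. Over all genes 7.62% were called there and 3.12% were higher. The homeobox genes Hoxb4 (1.19 ± 0.29, edgeR adjusted p = 0.0112) and Meis1 (0.99 ± 0.15, edgeR adjusted p = 5.26e-05) were among the higher ones. Stra8, a germ line gene induced by retinoic acid, was the 1 called lower (-0.82 ± 0.10, edgeR adjusted p = 4.44e-06). The list median was 0.26, against -0.03 over all genes tested, and the signs of uncalled targets do not show that they changed. Stra8 lies on chromosome 6, whose shift is given above, and was lower against the direction of that shift. It was called in each of the 3 treatments.

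Cell markers moved with the fractions beside these genes. The sum of 8 pluripotent cell markers was 301 to 429 CPM in FOXA2-positive and 581 to 1107 CPM in FOXA2-negative libraries, with 7 of 8 called lower on average. The sum of 7 surface ectoderm markers was 348 to 709 CPM and 638 to 984 CPM, with 6 of 7 called lower. Other lists held genes that were called higher in FOXA2-positive cells, beside Cyp26b1, Crabp1 and Crabp2. Floor plate markers summed to 33.7 to 80.4 CPM against 3.01 to 13.5 CPM, with Foxa2 (5.24 ± 0.46, edgeR adjusted p = 8.52e-08) and Foxa1 (2.54 ± 0.65, edgeR adjusted p = 0.0173) called higher and Ntn1 not (0.41 ± 0.32, edgeR adjusted p = 0.54). Neural progenitor markers summed to 395 to 987 CPM against 348 to 625 CPM, with Ncam1 and Cdh2 called higher and all 7 log2 fold changes positive. Definitive endoderm markers summed to 38.8 to 92.3 CPM against 8.01 to 44.7 CPM, with Sox17 called higher (2.38 ± 0.32, edgeR adjusted p = 1.54e-05). That list was split, with 3 of its 6 log2 fold changes positive and 3 negative. Mesoderm markers (15.8 to 57.5 against 16.1 to 48.2 CPM) and neural crest markers (2.64 to 11.7 against 0.754 to 13.4 CPM) overlapped, with no gene called. The sums of surface ectoderm, neural progenitor and definitive endoderm markers also overlapped between fractions. The part of cell makeup in the differences of Cyp26b1, Crabp1, Crabp2 and Rarg was not tested.

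Between treatments, the homeobox gene Meis2 was lower after BMP4 than after RA on average (176 ± 22.5 against 275 ± 81.6 CPM, n = 6 each; -0.63 ± 0.13, edgeR adjusted p = 0.0289).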

How the data were processed

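SMART-Seq v2 libraries of 17 samples were counted by the authors, who deposited whole-number counts per Ensembl gene, not normalized. Build mm10, HTSeq 0.11.2 and cutadapt 1.18 appear in the submitters' processing notes, beside DESeq2 1.26.0 and UMI-tools 1.0.0. For aligner, annotation release and strand setting, nothing is stated in the sources used here. The 5 summary lines (49.3% to 54.4% of tallied reads) stayed out of library sizes. Symbols and coordinates came from GENCODE M21 (GRCm38, the same assembly as mm10) and promoter windows from RefSeq.

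In R 4.3.3, edgeR 4.0.16 kept 17813 genes with filterByExpr (minimum count 10, minimum total 15) and fitted 1 robust quasi-likelihood model to 6 groups with TMM scaling (11 residual degrees of freedom, common biological coefficient of variation 0.632). Tests were 9 pairwise and 3 interaction contrasts, plus 4 averaged contrasts added after seeing the data, with Benjamini-Hochberg adjustment over all genes. Each SE was derived from the estimate and its F statistic and is approximate at low counts. Protein identity between members was planned and not run. Alternatives were DESeq2 1.42.0, RLE scaling, no filter, a filter of 5 CPM in 2 libraries, no robust estimation, the compared groups alone, a replicate block, each library left out, and both RA libraries numbered 1 left out. The model was tested on simulated data.

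The members and lists were chosen with earlier results of these data known. All 9 members are named in every role. List genes are named where called, as the most abundant of their list or without counts (the Aldh1a genes were added after their values were seen), marker genes beside a member's result, and the 3 most similar genes only for a member called in the 12 planned contrasts. Some names in small counts were chosen after their values were seen. Results of several list genes are not reported here. In RA, deviations from the group mean (6664 genes) correlated between same-numbered libraries of both fractions at 0.587, 0.239 and 0.277, each over the limit of 0.1. The numbers were therefore taken to pair them there, from the data alone. The main model used no pairs, and only the alternative with a replicate block did. Yet FOXA2-positive library 2 correlated with FOXA2-negative library 3 at 0.243, and FOXA2-positive 3 with FOXA2-negative 2 at 0.168. These values also pass the limit, so the correlations do not establish numbers 2 and 3 as pairs.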

Additional observations from a re-analysis of the deposited data

How the results depend on the processing

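Over 9 pairwise, 3 interaction and 4 averaged contrasts, no called member reversed its direction under any alternative. Counts of called members that moved were these. Between fractions after RA the count was 0, and 2 with DESeq2, 2 without the filter, 1 with the replicate block and 1 with the compared groups alone. After BMP4 it was 0, and 2 without the filter. After LDN it was 0, and 2 with DESeq2, 2 without the filter, 1 with the replicate block, and 0 to 1 with each library left out. Without the filter 1 member was also called, against 0, for BMP4 against RA and LDN against RA in FOXA2-negative cells, BMP4 against LDN in FOXA2-positive cells, and BMP4 against RA averaged. Log2 fold changes of members called only without the filter hardly differed from the main fit, so those calls do not rest on larger differences. The averaged fraction contrast gave 3, and 5 without the filter, 4 with the replicate block, 2 with the stricter filter, and 3 without both RA libraries numbered 1, where Dhrs3 was called and Crabp1 was not (2 to 3 with each library left out). LDN against RA averaged gave 0, and 1 with DESeq2, 2 without the filter, 1 without both RA libraries numbered 1, and 0 to 1 with each library left out. The cause was not tested. The stricter filter dropped Cyp26b1, so it gave no value there. Calls over all genes moved too: between fractions 212 after RA (109 without both RA libraries numbered 1, 466 without the filter), 164 after BMP4 (420 with DESeq2) and 177 after LDN (487 with DESeq2), and for BMP4 against LDN 34 in FOXA2-negative (141 without the filter) and 57 in FOXA2-positive cells (196 without the filter). For BMP4 and LDN against RA, 7 to 37 calls became 83 to 294 without the filter. The paired analysis with a replicate block changed, besides the Crabp2 and Dhrs3 calls given above, no member's call. Same-numbered libraries correlated at 0.0495 to 0.0785 in BMP4 and 0.0566 to 0.0615 in LDN, under the limit of 0.1. Libraries of different numbers correlated at -0.0606 to -0.0108 in BMP4 and -0.0615 to 0.0046 in LDN. Values under the limit therefore do not show that same-numbered libraries were unpaired there. With 2 or 3 libraries a group, uncalled members may differ.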
